A study of Mus musculus with 12 samples.

Results

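Matrix metalloproteinases (MMPs) and their tissue inhibitors (TIMPs) were examined in mouse back skin after imiquimod (IMQ), with and without the label of an LCN2 knockout. The genes were taken by symbol: *Mmp2*, *Mmp3*, *Mmp9*, *Mmp10*, *Mmp12*, *Mmp13*, *Mmp14*, *Timp1*, *Timp2* and *Timp3*, 10 of the 56923 genes in the count table. All 10 had enough reads to be tested among 18529 genes, *Mmp10* through the IMQ groups only. Total RNA was sequenced from 12 skin samples in 4 groups of 3. All mice were female and 8 to 10 weeks old. WT control mice were littermates that received vehicle cream (Vaseline) on the shaved back each day for 6 days. WT IMQ mice received 5% IMQ cream instead, a TLR7 agonist that produces psoriasis-like lesions. The remaining groups, called here LCN2 KO-labelled control and LCN2 KO-labelled IMQ, were described as *Lcn2*-/- on a C57BL/6 background in the methods of the work. Vehicle or 5% IMQ cream was applied to them in the same way. In the repository labels the genotype is termed a knockdown, and the controls are listed without treatment. The labels number the samples of a group without saying that each came from its own mouse. They were taken as separate mice, and p-values measure only the spread between these samples.

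MMPs are zinc-dependent endopeptidases that are secreted or membrane-bound as inactive precursors and cleave collagens, gelatins, laminins, elastin and other matrix proteins once their propeptide is removed. TIMPs bind active MMPs and block them, so that transcript levels alone do not give the proteolytic activity of a tissue. In skin, fibroblasts, keratinocytes at the basement membrane, macrophages and neutrophils make different members of the family, and several MMP genes that lie side by side in a gene cluster carry an element for AP-1, the Fos and Jun transcription factor, just before their start.

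The element is shown first because, among the 8 members with a promoter window, those that held it lie in that cluster. On chromosome 9 (GRCm38, 7272514 to 7699585, 427.1 kb), 9 protein-coding *Mmp* genes were annotated, and 4 of them are members: *Mmp13*, *Mmp12*, *Mmp3* and *Mmp10*. *Mmp1a*, between *Mmp3* and *Mmp10*, is annotated as a polymorphic pseudogene and is not among the 9. RefSeq promoter windows (GRCm38.p6, 250 bases before to 50 bases after the start) were available for 8 of the 10 members, not for *Mmp2* and *Mmp9*. The letters TGANTCA, read on both strands, occurred in the windows of the 4 cluster members and in none of *Mmp14*, *Timp1*, *Timp2* and *Timp3*. The same letters occurred in 7.81% of all 32851 promoter windows of that length and, counted by gene over all its windows, in 8.97% of 27025 genes. The match began 46 bases before the start in *Mmp3*, 63 in *Mmp10*, 35 in *Mmp13* and 44 in *Mmp12*, the last in the second of its listed windows only. The 110 bases before each start follow, 5′ to 3′ from RefSeq GRCm38.p6, with the matching letters in capitals. The stretches lie on the + strand at chr9:7445712-7445821 for *Mmp3*, chr9:7502232-7502341 for *Mmp10*, chr9:7272404-7272513 for *Mmp13* and chr9:7347264-7347373 for *Mmp12*. A match of letters is a description and does not show that a factor was bound.
Mmp3: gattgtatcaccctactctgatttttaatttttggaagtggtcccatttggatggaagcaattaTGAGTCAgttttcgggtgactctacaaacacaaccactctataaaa
Mmp10: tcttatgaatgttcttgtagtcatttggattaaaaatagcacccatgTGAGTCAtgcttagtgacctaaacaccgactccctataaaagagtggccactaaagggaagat
Mmp13: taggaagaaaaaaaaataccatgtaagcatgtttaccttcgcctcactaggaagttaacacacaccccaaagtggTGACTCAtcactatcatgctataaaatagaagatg
Mmp12: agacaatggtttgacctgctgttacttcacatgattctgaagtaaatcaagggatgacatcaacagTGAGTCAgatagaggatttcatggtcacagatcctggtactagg

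Between 16448226 and 28592110 reads were counted on genes per library, and 3 counts, taken as the floor, corresponded to 0.0985 to 0.202 CPM, the unit used below, which is reads scaled to a common library total after TMM normalization. *Lcn2*, the gene named in the labels, was counted in every library. Its counts were 136, 201 and 86 in WT control, 1010, 2723 and 1572 in WT IMQ, 320, 173 and 357 in LCN2 KO-labelled control, and 561, 511 and 830 in LCN2 KO-labelled IMQ mice. Reads on *Lcn2* at these numbers do not match a knockout label, and a count per gene does not tell which exons were covered. Between the IMQ groups *Lcn2* was lower with the LCN2 KO label, without overlap (log2 difference -1.49, adjusted p = 0.0525, edgeR). DESeq2 gave this drop an adjusted p under 0.05. Between the control groups *Lcn2* was higher with that label, without overlap (0.87, adjusted p = 0.794, edgeR). Its response to IMQ differed by -2.36 on the log2 scale in LCN2 KO-labelled against WT mice (adjusted p = 0.0552, edgeR). Markers of keratinocytes, fibroblasts, endothelium, adipocytes and skeletal muscle were all detected in the skin samples. The summed hair follicle keratins of single mice ran from 14.4 to 3170 CPM in WT control and from 188 to 10100 CPM in LCN2 KO-labelled control. WT control mouse 2, with the lowest of these values, had the highest WT control level of *Mmp2*, *Mmp3*, *Mmp9*, *Mmp12*, *Timp2* and *Timp3*. LCN2 KO-labelled control mouse 2, with the highest, had the lowest level of its group of *Mmp2*, *Mmp3*, *Mmp9*, *Mmp12*, *Mmp13*, *Mmp14* and *Timp2*. The part of both mice in the results was examined by leaving each out.

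IMQ was followed by higher transcript levels of stromelysins, collagenase and *Timp1* in mice of both labels. In WT mice, 4 members were higher (*Mmp3*, *Mmp10*, *Mmp13* and *Timp1*) and 2 were lower (*Mmp12* and *Timp3*) at an adjusted p under 0.05 in the quasi-likelihood test of edgeR, against 14.2% of all tested genes called higher and 14.3% called lower. In LCN2 KO-labelled mice, 7 members were higher (those 4 with *Mmp2*, *Mmp9* and *Mmp14*) and 0 were lower, against 14.1% and 11.2% of all tested genes. DESeq2 called 1 member lower there, *Mmp12*, with 11.9% of its tested genes lower. An unadjusted p under 0.05 from edgeR was found for 8 members with each label, against 40.5% of all tested genes in WT and 38.5% in LCN2 KO-labelled mice. The IMQ and control groups did not overlap for 5 members higher and 2 lower in WT (20.1% and 20.6% of all tested genes) and for 8 higher and 2 lower in LCN2 KO-labelled mice (23.1% and 22.8%). The median log2 fold change of the 10 members was 0.41 in WT and 1.60 in LCN2 KO-labelled mice, and that of all tested genes was -0.02 and -0.05.

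**Figure D1:**
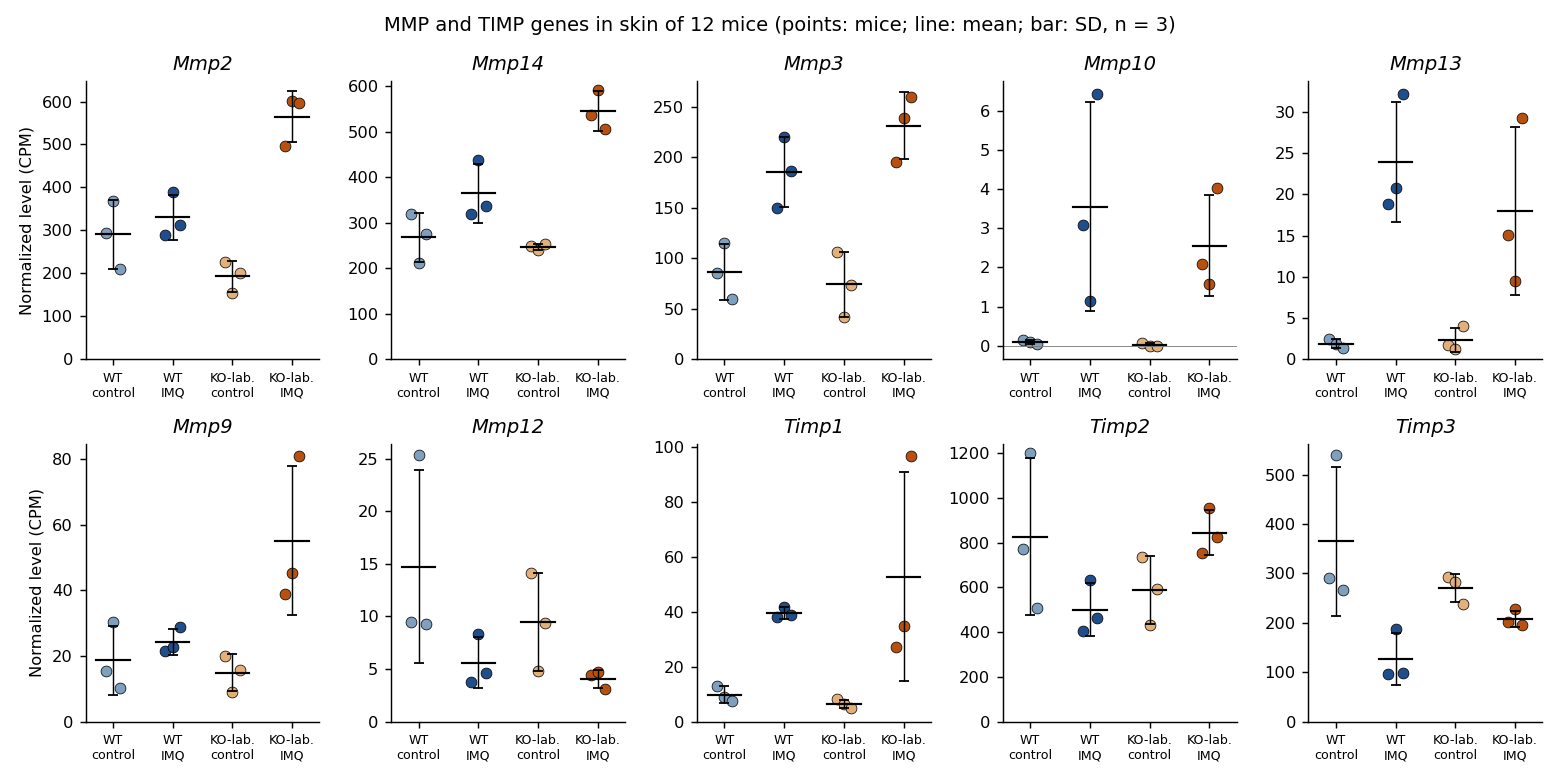
Normalized level (CPM, linear axis from 0) of each MMP and TIMP gene in the 12 skin samples. Points are mice, horizontal lines are means of 3 and bars are the SD. *Mmp10* and *Mmp13* were near the bottom of the axis in all 6 control mice, *Mmp2* and *Mmp14* stood highest in the LCN2 KO-labelled IMQ mice, and *Timp1* was carried upwards by 1 LCN2 KO-labelled IMQ mouse at 96.7 CPM.

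The stromelysins *Mmp3* and *Mmp10* cleave proteoglycans, laminin and fibronectin and can activate other pro-MMPs. *Mmp3* (ENSMUSG00000043613, chromosome 9 from 7445822 to 7455975) was at 85.6, 115 and 59.4 CPM in the 3 WT control mice and at 150, 220 and 186 CPM in the WT IMQ mice. With the LCN2 KO label it was at 106, 42.0 and 73.7 CPM in the control group and at 195, 239 and 260 CPM after IMQ. Every IMQ mouse was above every control mouse of its label. The rise was 2.14-fold in WT (log2 fold change 1.10, SE 0.31, adjusted p = 0.0218, edgeR) and 3.13-fold in LCN2 KO-labelled mice (log2 fold change 1.65, SE 0.32, adjusted p = 0.00376, edgeR). The WT call was lost when WT control mouse 1, WT control mouse 3, WT IMQ mouse 2 or WT IMQ mouse 3 was left out, with a log2 fold change between 0.88 and 1.36 and an adjusted p up to 0.0760 over all 12 fits.

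*Mmp10* (ENSMUSG00000047562, chromosome 9 from 7502352 to 7510240) had 3, 2 and 1 counts in WT control mice and 51, 17 and 133 counts in WT IMQ mice. In the LCN2 KO-labelled groups the counts were 2, 0 and 0 in control and 34, 27 and 67 after IMQ. Transcripts were thus at or under the floor of 3 counts in all 6 control mice and above it in all 6 IMQ mice. Against the mean of that floor in the control libraries, the group mean of *Mmp10* rose at least 25-fold in WT (adjusted p = 0.000787, edgeR). This bound was 14.9-fold without WT IMQ mouse 3. In LCN2 KO-labelled mice the group mean rose at least 19.6-fold (adjusted p = 0.000898, edgeR), a bound of 14-fold without LCN2 KO-labelled IMQ mouse 3. These bounds are for group means and not for single mice. The fitted log2 fold change, which is no bound, was 5.16 in WT and 4.41 without WT IMQ mouse 3, and 6.26 in LCN2 KO-labelled mice and 8.59 without LCN2 KO-labelled control mouse 1. *Mmp10* remained a rare transcript after IMQ, at 3.56 ± 2.68 CPM (SD, n = 3) in WT IMQ and 2.56 ± 1.29 CPM (SD, n = 3) in LCN2 KO-labelled IMQ mice. *Mmp10* passed the filter on low counts through the IMQ mice alone, where it was high, and its adjusted p values come after that selection. It was not tested with at least 10 counts required in every library. *Mmp3* and *Mmp10* are paralogs, and reads shared by them may have been counted on either.

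*Mmp13* (ENSMUSG00000050578, chromosome 9 from 7272514 to 7283331) encodes the principal interstitial collagenase of mouse tissue. It was at 2.45, 1.81 and 1.33 CPM in WT control and at 18.8, 20.8 and 32.2 CPM in WT IMQ mice. The LCN2 KO-labelled mice had 1.74, 1.17 and 3.97 CPM in control and 15.1, 9.47 and 29.3 CPM after IMQ. No control mouse reached the lowest IMQ mouse. The rise was 12.8-fold in WT (log2 fold change 3.68, SE 0.52, adjusted p = 0.000443, edgeR) and 7.78-fold in LCN2 KO-labelled mice (log2 fold change 2.96, SE 0.50, adjusted p = 0.00202, edgeR), and both calls were kept in all 12 fits that left out a mouse. Without LCN2 KO-labelled control mouse 3, the highest of its group, the latter log2 fold change was 3.59.

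*Mmp12* (ENSMUSG00000049723, chromosome 9 from 7344381 to 7369499), the macrophage elastase, was the member of the cluster that was lower after IMQ. WT control mice had 9.52, 25.3 and 9.30 CPM, and WT IMQ mice had 3.82, 8.34 and 4.60 CPM. The LCN2 KO-labelled levels were 14.1, 4.85 and 9.42 CPM in control and 4.46, 4.68 and 3.12 CPM after IMQ. The groups of each label did not overlap, although WT control mouse 2 stood far above the others. *Mmp12* fell by 1.40 on the log2 scale in WT (SE 0.48, adjusted p = 0.0469, edgeR). Its log2 fold change in LCN2 KO-labelled mice was -1.21 (95% interval -2.27 to -0.16, adjusted p = 0.0869, edgeR), which was not called. The WT value was -0.76 without WT control mouse 2, and the call was lost there and in 6 of the other 11 fits that left out a mouse (WT IMQ mice 1 and 3, LCN2 KO-labelled control mouse 3 and each LCN2 KO-labelled IMQ mouse), with an adjusted p from 0.0292 to 0.213. Of its exon bases, 157 (2.17%) are shared with *Mmp1b* on the opposite strand, and whether the counting used strand is not given in the sources used here. *Mmp1b* itself had at most 33 counts in any mouse.

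Of 12 macrophage markers, 3 were called higher in WT and 11 in LCN2 KO-labelled mice after IMQ, and 0 were called lower. The shares of all tested genes called higher were 14.2% in WT and 14.1% in LCN2 KO-labelled mice, and 14.3% and 11.2% were called lower. Summed over the list, they were at 1690 to 6030 CPM in WT control, 3930 to 6340 CPM in WT IMQ, 1520 to 2850 CPM in LCN2 KO-labelled control and 6030 to 8380 CPM in LCN2 KO-labelled IMQ mice. WT control mouse 2, which had the most *Mmp12*, also had the highest macrophage sum of its group. In bulk skin, fewer cells of a type and less RNA per cell cannot be told apart, and the part of the macrophage markers in the *Mmp12* values was not tested.

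*Mmp2* (ENSMUSG00000031740, chromosome 8 from 92827291 to 92853420), gelatinase A, is made chiefly by fibroblasts and cleaves denatured collagen and basement membrane collagen. Its level was 294, 368 and 209 CPM in WT control and 290, 389 and 312 CPM in WT IMQ mice. With the LCN2 KO label it was 225, 154 and 201 CPM in control and 496, 602 and 596 CPM after IMQ. The WT groups overlapped over most of their range, whereas every LCN2 KO-labelled IMQ mouse was above the 9 other mice. The log2 fold change after IMQ was 0.19 in WT (95% interval -0.27 to 0.64, adjusted p = 0.539, edgeR), and *Mmp2* rose 2.92-fold in LCN2 KO-labelled mice (log2 fold change 1.55, SE 0.21, adjusted p = 0.000574, edgeR).

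*Mmp14* (ENSMUSG00000000957, chromosome 14 from 54431612 to 54445364) encodes the membrane-type protease that activates pro-MMP2 at the cell surface. It was at 318, 211 and 275 CPM in WT control and at 319, 438 and 336 CPM in WT IMQ mice, groups that just failed to overlap. LCN2 KO-labelled mice had 248, 239 and 252 CPM in control and 536, 592 and 506 CPM after IMQ, which put all 3 of the latter above every other mouse. *Mmp14* rose 2.21-fold in LCN2 KO-labelled mice (log2 fold change 1.14, SE 0.17, adjusted p = 0.000747, edgeR). In WT mice its log2 fold change was 0.44 (95% interval 0.09 to 0.80, unadjusted p = 0.0189, adjusted p = 0.0613, edgeR), short of a call, which DESeq2 and the fit without WT control mouse 1 gave.

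*Mmp9* (ENSMUSG00000017737, chromosome 2 from 164940780 to 164955850), gelatinase B, is stored in neutrophil granules and made by macrophages and keratinocytes. WT control mice had 15.5, 30.3 and 10.2 CPM, and WT IMQ mice had 21.4, 22.6 and 28.7 CPM, within the range of the controls. Values with the LCN2 KO label were 20.1, 9.11 and 15.7 CPM in control and 39.0, 45.3 and 81.0 CPM after IMQ, without overlap. The log2 fold change was 0.37 in WT (95% interval -0.51 to 1.26, adjusted p = 0.523, edgeR), and the rise in LCN2 KO-labelled mice was 3.67-fold (log2 fold change 1.88, SE 0.41, adjusted p = 0.00772, edgeR). Neutrophil markers were called higher for 6 of 8 tested genes in WT and 8 of 8 in LCN2 KO-labelled mice, with sums of 7.34 to 23.6 CPM in WT control, 129 to 167 CPM in WT IMQ, 9.86 to 27.7 CPM in LCN2 KO-labelled control and 167 to 402 CPM in LCN2 KO-labelled IMQ mice. Over all tested genes, 14.2% in WT and 14.1% in LCN2 KO-labelled mice were called higher. The part of the neutrophil markers in the *Mmp9* values was not tested.

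Among the inhibitors, *Timp1* was the member that rose with the MMPs. *Timp1* (ENSMUSG00000001131, chromosome X from 20870166 to 20874735), the inducible TIMP, was at 13.2, 8.98 and 7.44 CPM in WT control and at 38.0, 41.9 and 39.0 CPM in WT IMQ mice. LCN2 KO-labelled mice had 8.11, 6.39 and 4.91 CPM in control and 27.1, 34.8 and 96.7 CPM after IMQ. The WT IMQ mice were nearly equal and far above their controls, while LCN2 KO-labelled IMQ mouse 3 stood well above the other 2 of its group. The rise was 4-fold in WT (log2 fold change 2.00, SE 0.42, adjusted p = 0.00472, edgeR) and 8.14-fold in LCN2 KO-labelled mice (log2 fold change 3.02, SE 0.44, adjusted p = 0.000802, edgeR). Without LCN2 KO-labelled IMQ mouse 3 the latter log2 fold change was 2.25 and was still called.

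*Timp3* (ENSMUSG00000020044, chromosome 10 from 86300372 to 86349506), which is held in the matrix and also inhibits ADAM proteases, was the inhibitor that fell. WT control mice had 290, 539 and 267 CPM, and WT IMQ mice had 95.8, 188 and 97.8 CPM. With the LCN2 KO label the values were 292, 282 and 238 CPM in control and 201, 227 and 196 CPM after IMQ. The groups of each label did not overlap, with a wider gap in WT. *Timp3* fell by 1.52 on the log2 scale in WT (SE 0.30, adjusted p = 0.00345, edgeR), a 2.87-fold lower level, and the call was kept in all 12 fits that left out a mouse. Its log2 fold change in LCN2 KO-labelled mice was -0.38 (95% interval -1.02 to 0.27, adjusted p = 0.370, edgeR). Of the exon bases of *Timp3*, 1733 (21.3%) are shared with *Syn3* on the opposite strand, so some of its counts could belong to that gene if strand was not used. CPM is a share of a library, and the part of the cell makeup of the samples in the fall of *Timp3* was not tested.

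*Timp2* (ENSMUSG00000017466, chromosome 11 from 118301069 to 118355740), a constitutive inhibitor that also takes part in the activation of pro-MMP2 by MMP14, was at 770, 1200 and 508 CPM in WT control and at 405, 632 and 464 CPM in WT IMQ mice. LCN2 KO-labelled mice had 736, 433 and 591 CPM in control and 753, 952 and 825 CPM after IMQ. The WT groups overlapped and the LCN2 KO-labelled groups did not. Neither response was called, with a log2 fold change of -0.73 in WT (95% interval -1.37 to -0.08, adjusted p = 0.0865, edgeR) and of 0.52 in LCN2 KO-labelled mice (95% interval -0.12 to 1.17, adjusted p = 0.212, edgeR). Leaving out WT control mouse 3 gave a call in WT, with a log2 fold change of -0.99 and an adjusted p of 0.0210.

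**Figure D2:**
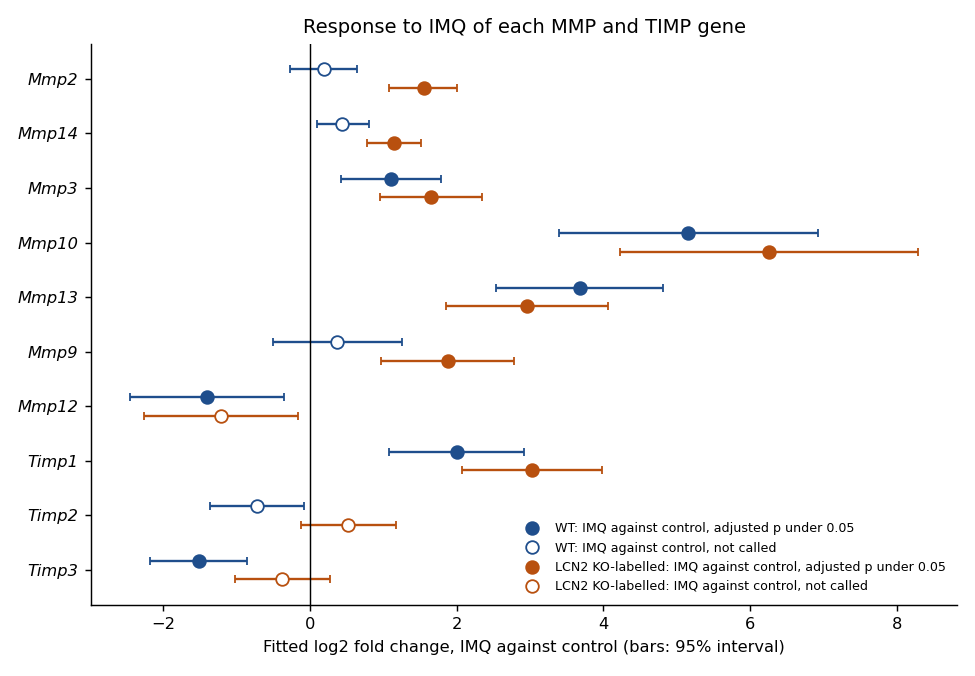
Fitted log2 fold change of each gene after IMQ (horizontal axis, log2 scale) in WT mice and in LCN2 KO-labelled mice. Bars are 95% intervals, and filled points have an adjusted p under 0.05 from edgeR. The intervals of *Mmp2* do not overlap between the labels (0.19 and 1.55), while those of *Mmp3*, *Mmp10*, *Mmp13* and *Timp1* do.

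Levels were set side by side per kilobase of exon, since the members differ in length. In WT control skin the order of the means was *Timp2* at 212 ± 90.4, *Mmp2* at 86.1 ± 23.6, *Mmp3* at 48.1 ± 15.4, *Mmp14* at 44.9 ± 9.04, *Timp3* at 44.8 ± 18.5, *Timp1* at 11.1 ± 3.37, *Mmp9* at 5.27 ± 2.94, *Mmp12* at 2.03 ± 1.27, *Mmp13* at 0.696 ± 0.210 and *Mmp10* at 0.0538 ± 0.0250 CPM per kilobase (SD, n = 3). *Mmp3*, *Mmp14* and *Timp3* lay within each other's spread. In WT IMQ skin *Mmp3*, at 103 ± 19.5 CPM per kilobase, stood beside *Mmp2* at 98.0 ± 15.4, and *Mmp13*, at 8.95 ± 2.70, was above *Mmp12* at 0.772 ± 0.334 (SD, n = 3). The makeup of the transcripts of the 3 TIMPs among the members also differed between the treatments. Per kilobase, *Timp1* made up 4.50% ± 1.72 of the 3 TIMPs in WT control and 24.1% ± 3.45 in WT IMQ mice, and 3.86% ± 0.870 and 18.8% ± 11.1 in the LCN2 KO-labelled groups (SD, n = 3). *Timp3* made up 16.9% ± 2.38 and 8.08% ± 1.64 in WT and 17.9% ± 4.12 and 8.63% ± 1.51 in LCN2 KO-labelled mice (SD, n = 3). *Timp2* was the most abundant TIMP in every group, at 61.4% to 81.4% of the sum in single mice.

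Summed per kilobase, the 7 MMP genes were at 195, 221 and 146 in WT control, 238, 327 and 277 in WT IMQ, 175, 113 and 150 in LCN2 KO-labelled control, and 364, 428 and 443 in LCN2 KO-labelled IMQ mice. The 3 TIMP genes were at 248, 385 and 171, at 159, 232 and 175, at 234, 153 and 187, and at 249, 311 and 345 in the same groups. TIMP sums therefore overlapped between treatments in WT and not in LCN2 KO-labelled mice. The ratio of the TIMP sum to the MMP sum was 1.28, 1.74 and 1.18 in WT control and 0.665, 0.711 and 0.632 in WT IMQ mice. It was 1.33, 1.36 and 1.24 in LCN2 KO-labelled control and 0.684, 0.727 and 0.779 in LCN2 KO-labelled IMQ mice. All 6 control mice had a ratio above 1 and all 6 IMQ mice had one below 1. These sums describe the 10 chosen genes as transcripts, were not tested, and do not measure protein or activity.

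**Figure D3:**
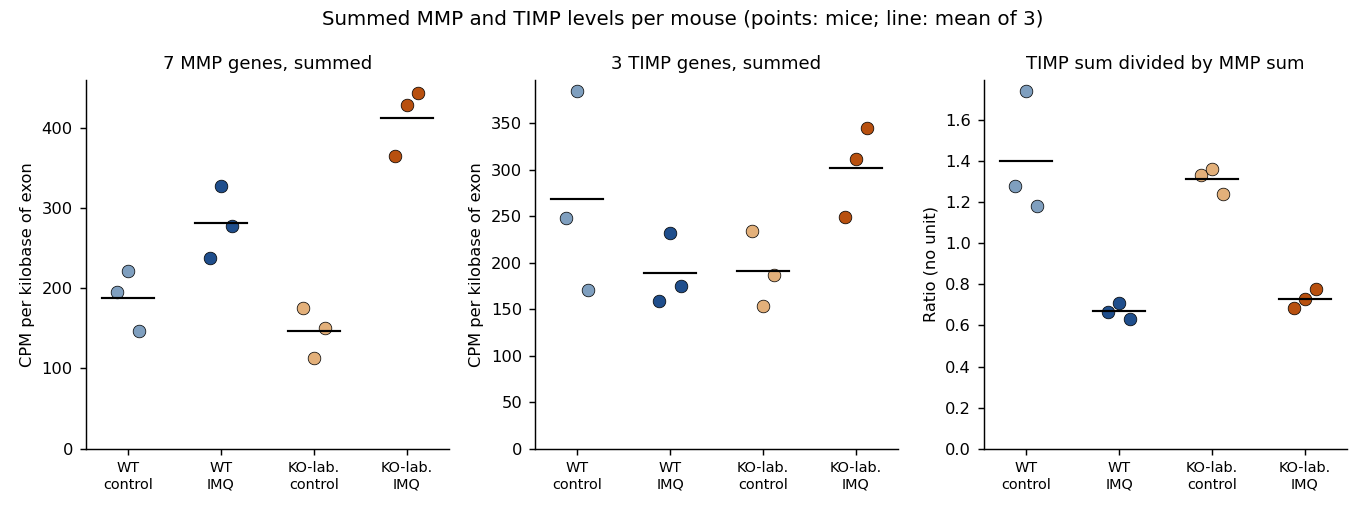
Summed levels of the 7 MMP and the 3 TIMP genes (CPM per kilobase of exon, axes from 0) and their ratio in each mouse. Points are mice and lines are means of 3. The MMP sum was highest in the LCN2 KO-labelled IMQ mice (364 to 443), and the ratio lay between 1.18 and 1.74 in control and between 0.632 and 0.779 in IMQ mice.

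Between the IMQ groups, 0 of 10 members were called in LCN2 KO-labelled against WT mice, where edgeR called 2.19% of all tested genes higher and 2.6% lower. This comparison reuses the IMQ mice of the comparisons above. An unadjusted p under 0.05 was found for 5 members (and for 27% of all tested genes), *Mmp2*, *Mmp9*, *Mmp14*, *Timp2* and *Timp3*. Each of these 5 was higher in every LCN2 KO-labelled IMQ mouse than in every WT IMQ mouse, an order that 16% of all tested genes showed (17.3% showed the reverse). The log2 difference was 0.77 for *Mmp2* (95% interval 0.31 to 1.23, adjusted p = 0.0546, edgeR), 0.58 for *Mmp14* (0.22 to 0.94, adjusted p = 0.0612) and 1.18 for *Mmp9* (0.30 to 2.07, adjusted p = 0.0984). It was 0.75 for *Timp2* (0.11 to 1.40, adjusted p = 0.133, edgeR) and 0.71 for *Timp3* (0.06 to 1.36, adjusted p = 0.153). DESeq2 called 3 of them (*Mmp2*, *Mmp9* and *Mmp14*), and 7.14% of all genes it tested were higher. The edgeR test on the 6 IMQ mice alone called 4 (those 3 and *Timp2*), with 6.34% of its tested genes higher.

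For the other 5 members the interval of the difference between the IMQ groups included 0. The log2 difference was -0.49 for *Mmp10* (95% interval -1.79 to 0.82), -0.42 for *Mmp13* (-1.41 to 0.57), 0.32 for *Mmp3* (-0.36 to 0.99), -0.45 for *Mmp12* (-1.51 to 0.62) and 0.42 for *Timp1* (-0.46 to 1.29). Their adjusted p values from edgeR lay between 0.526 and 0.627. These intervals do not show that the levels were alike.

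The responses to IMQ were compared in the same model as the difference between the labels. *Mmp2* was called, with a response larger in LCN2 KO-labelled than in WT mice by 1.36 on the log2 scale (SE 0.30, 95% interval 0.71 to 2.01, adjusted p = 0.0432, edgeR). Of all tested genes, 1.37% were called in this direction and 0.783% in the other. The value of 1.36 combines 0.77 between the IMQ groups with -0.59 between the control groups, neither of which was called. It ran from 1.15 to 1.55 when each mouse was left out. The call was kept without WT control mouse 3, WT IMQ mouse 2 or LCN2 KO-labelled control mouse 1, and lost in the 9 other fits, with an adjusted p up to 0.138. These 9 included the fit without LCN2 KO-labelled control mouse 2, the lowest of its group for *Mmp2* at 154 CPM. A further 4 members had an unadjusted p under 0.05 (24.1% of all tested genes had one in either direction), with differences of 1.50 for *Mmp9* (adjusted p = 0.145), 1.25 for *Timp2* (adjusted p = 0.109), 1.14 for *Timp3* (adjusted p = 0.133) and 0.70 for *Mmp14* (adjusted p = 0.106, edgeR). For *Mmp3*, *Mmp10*, *Mmp12*, *Mmp13* and *Timp1* the 95% interval of the difference included 0.

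Without IMQ, 0 of 10 members were called between the labels, and edgeR called 0.0054% of all tested genes in each direction. The log2 difference was negative for 9 of 10 members, with a median of -0.46 against 0 over all tested genes. An unadjusted p under 0.05 was found for 1 member (6.6% of all tested genes), *Mmp2*, with a log2 difference of -0.59 (95% interval -1.04 to -0.13, unadjusted p = 0.0163, adjusted p = 0.669, edgeR). DESeq2 called 0 members as well, with 0.325% of its tested genes higher and 0.296% lower. No member separated the control groups, which 4.19% of all tested genes did upwards and 5.18% downwards in LCN2 KO-labelled mice.

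Matrix genes that MMPs cut, and markers of the cells that make MMPs, were set beside these values. Of 17 basement membrane and matrix genes, 6 were called higher and 4 lower in WT, 9 higher and 0 lower in LCN2 KO-labelled mice, and 7 higher and 0 lower between the IMQ groups. The shares over all tested genes were 14.2% higher and 14.3% lower in WT and 14.1% and 11.2% in LCN2 KO-labelled mice. Between the IMQ groups they were 2.19% and 2.6%. In WT mice the epidermal laminin genes *Lamb3* (log2 fold change 1.14, adjusted p = 0.000104) and *Lama3* (1.04, adjusted p = 0.0068, edgeR) rose, as did *Col7a1* of the anchoring fibrils (1.58, adjusted p = 0.00372). The fibrillar collagen gene *Col1a2* fell by 0.81 on the log2 scale in WT (adjusted p = 0.00404, edgeR). *Col1a1*, at 2810, 2980 and 2290 CPM in WT control, 1890, 1850 and 2080 CPM in WT IMQ, 2120, 2700 and 2520 CPM in LCN2 KO-labelled control and 4840, 4510 and 4280 CPM in LCN2 KO-labelled IMQ mice, was highest in the same mice as *Mmp2* and *Mmp14*. Between the IMQ groups the log2 difference was 1.23 for *Col1a1* (adjusted p = 0.0215), 1.13 for the elastin gene *Eln* (adjusted p = 0.0219), 1.06 for *Col1a2* (adjusted p = 0.0219) and 1.01 for *Col3a1* (adjusted p = 0.0349, edgeR). After IMQ in LCN2 KO-labelled mice, *Eln* rose by 1.96 and *Col3a1* by 1.52 (adjusted p at most 0.000846, edgeR), and *Col7a1* by 1.13 (adjusted p = 0.0226, edgeR), the last called in 8 of 12 fits that left out a mouse. Of the genes lower in WT, *Nid1* (-0.81), *Fn1* (-0.97) and *Col1a1* (-0.47) were called in 8, 3 and 7 of these 12 fits. The 4 calls between the IMQ groups were lost in each fit that left out an IMQ mouse other than WT IMQ mouse 2. Over all genes, no such fit called more than 1 gene higher or 3 lower, and the fit without WT IMQ mouse 2 called 1288 higher and 1438 lower.

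Fibroblast markers were called higher for 0 and lower for 8 of 12 genes in WT, and for 2 and 0 of 12 in LCN2 KO-labelled mice after IMQ. For these and the markers below, the shares over all tested genes are those given with the matrix genes. Between the IMQ groups all 12 had a positive log2 difference (median 0.88, against -0.02 over all tested genes), and 2 were called. Their sums were 4840 to 8390 CPM in WT control, 3890 to 4850 CPM in WT IMQ, 4580 to 6390 CPM in LCN2 KO-labelled control and 6050 to 7430 CPM in LCN2 KO-labelled IMQ mice. A positive difference was also found for 8 of 8 endothelial (median 0.73, 0 called), 12 of 12 macrophage (median 0.67, 0 called), 8 of 8 neutrophil (median 0.77, 1 called), 6 of 6 adipocyte (median 0.84, 0 called) and 5 of 6 skeletal muscle markers (median 0.35, 0 called). Keratinocyte markers were called higher after IMQ for 13 of 14 genes in WT and 9 of 14 in LCN2 KO-labelled mice, and lower for 0. Between the IMQ groups these markers lay on the other side, with 14 of 14 negative (median -0.72, 5 called lower). Their sums were 6750 to 11500 CPM in WT control, 37200 to 49100 CPM in WT IMQ, 7760 to 10300 CPM in LCN2 KO-labelled control and 21900 to 33500 CPM in LCN2 KO-labelled IMQ mice. Of 6 hair follicle markers none had a positive difference between the IMQ groups (median -1.66, 0 called). The part of these cell markers in the levels of *Mmp2*, *Mmp9*, *Mmp14*, *Timp2*, *Timp3* and the matrix genes was not tested.

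**Figure D4:**
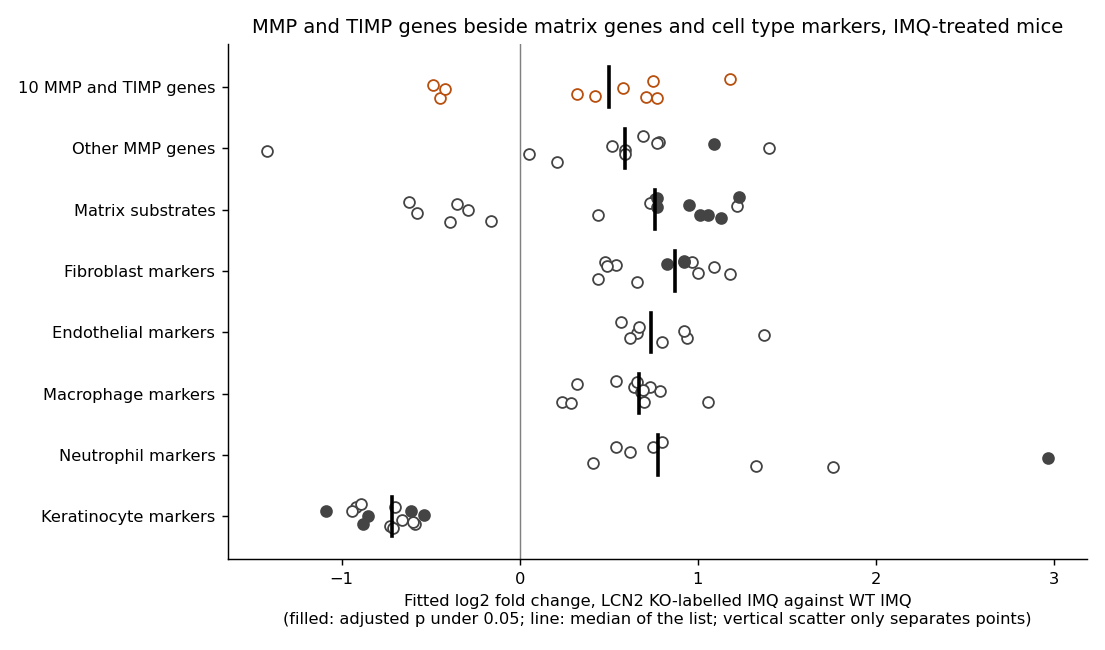
Fitted log2 difference between LCN2 KO-labelled IMQ and WT IMQ mice (horizontal axis) for single genes, in rows by list. Filled points have an adjusted p under 0.05 from edgeR, vertical lines are list medians, and the vertical scatter within a row has no meaning. The members (median 0.50) lie on the same side of 0 as the fibroblast markers (0.88) and endothelial markers (0.73) for 7 of 10 genes, and the keratinocyte markers (-0.72) lie on the other side.

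MMP genes outside the 10 members were also called after IMQ. Of 11 tested, 4 were called higher and 2 lower in WT, and 5 higher and 0 lower in LCN2 KO-labelled mice. Over all tested genes, 14.2% were called higher and 14.3% lower in WT, and 14.1% and 11.2% in LCN2 KO-labelled mice. *Mmp8*, the neutrophil collagenase, was at 0.739, 0.817 and 0.585 CPM in WT control and at 19.0, 25.5 and 30.3 CPM in WT IMQ mice. With the LCN2 KO label it was at 0.952, 0.586 and 4.02 CPM in control and at 46.0, 37.2 and 114 CPM after IMQ. It rose by a log2 fold change of 5.11 in WT (SE 0.69, adjusted p = 0.000333, edgeR) and 5.15 in LCN2 KO-labelled mice (SE 0.65, adjusted p = 0.000371, edgeR). The latter *Mmp8* value was 6.36 without LCN2 KO-labelled control mouse 3 and 4.49 without LCN2 KO-labelled IMQ mouse 3. *Mmp19* rose by 1.96 and 2.11 on the log2 scale, and *Mmp11*, stromelysin-3, by 1.60 and 2.25 in WT and LCN2 KO-labelled mice, with adjusted p values from edgeR of at most 0.00405. *Mmp23*, at 23.5, 38.6 and 15.1 CPM in WT control, 10.3, 12.8 and 12.6 CPM in WT IMQ, 18.3, 13.9 and 15.3 CPM in LCN2 KO-labelled control and 24.1, 25.6 and 26.2 CPM in LCN2 KO-labelled IMQ mice, fell by 1.11 on the log2 scale in WT (adjusted p = 0.0102, edgeR). It was higher by 1.09 in LCN2 KO-labelled IMQ than in WT IMQ mice (adjusted p = 0.0464, edgeR), a call kept in 5 of 12 fits that left out a mouse. The membrane-type genes *Mmp15* (-0.47 in WT, adjusted p = 0.0323) and *Mmp16* (1.04 in LCN2 KO-labelled mice, adjusted p = 0.0433, edgeR) were called in 8 and 4 of 12 such fits.

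The inhibitors tested outside the members were *Timp4*, *Reck* and *Tfpi2*. *Timp4* had mean levels of 14.8 CPM in WT control, 9.92 CPM in WT IMQ, 26.1 CPM in LCN2 KO-labelled control and 22 CPM in LCN2 KO-labelled IMQ mice. It was not called after IMQ with either label. *Reck*, a membrane-anchored MMP inhibitor, was at 54.8, 106 and 40.2 CPM in WT control and at 22.5, 27.8 and 22.8 CPM in WT IMQ mice, and fell by 1.46 on the log2 scale (SE 0.29, adjusted p = 0.00367, edgeR), the 1 of 3 tested inhibitors called in WT. *Reck* was not called in LCN2 KO-labelled mice, where *Tfpi2*, an inhibitor of serine proteases, rose by 1.69 (SE 0.38, adjusted p = 0.00774, edgeR). The plasminogen activator system, which feeds pro-MMP activation through plasmin, had 4 of 8 genes called higher in WT and 3 of 8 in LCN2 KO-labelled mice, and 0 lower in either. Beside these stand 14.2% of all tested genes higher and 14.3% lower in WT, and 14.1% and 11.2% with the LCN2 KO label. Between the IMQ groups, 2.19% of all tested genes were called higher and 2.6% lower. In this list, the plasminogen activator inhibitor gene *Serpinb2* was at 48.2, 83.8 and 61.1 CPM in WT control, 846, 758 and 691 CPM in WT IMQ, 97.5, 65.1 and 96.6 CPM in LCN2 KO-labelled control and 227, 269 and 274 CPM in LCN2 KO-labelled IMQ mice. It rose by 3.57 in WT (adjusted p = 1.95e-06) and by 1.57 in LCN2 KO-labelled mice (adjusted p = 0.000487, edgeR). The urokinase receptor gene *Plaur* rose by 1.77 on the log2 scale in each (adjusted p at most 0.000736, edgeR). In the comparison of the IMQ groups 1 gene of this list was called higher and 2 lower, and *Serpinb2* had a log2 difference of -1.57 (adjusted p = 0.0215, edgeR), kept in 7 of 12 fits that left out a mouse. The tissue plasminogen activator gene *Plat* (0.67, adjusted p = 0.0445) and the plasminogen receptor gene *Plgrkt* (-0.49, adjusted p = 0.0459, edgeR) were kept in 5 and 2 of them. In WT, *Plgrkt* rose by 0.61 after IMQ (adjusted p = 0.00333, edgeR).

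Of 6 tested genes tied to pro-MMP activation or MMP induction, 3 were called higher in WT and 4 in LCN2 KO-labelled mice, and 0 lower. The shares of all tested genes were 14.2% higher and 14.3% lower in WT, and 14.1% and 11.2% in LCN2 KO-labelled mice. The kallikrein gene *Klk6* rose by 3.36 and 2.35, the hyaluronan receptor gene *Cd44* by 1.94 and 0.72, and *Furin*, the convertase that processes pro-MMP14, by 1.01 and 0.90 (log2 scale, WT and LCN2 KO-labelled, adjusted p at most 0.00326, edgeR). *Bsg*, an inducer of MMP synthesis, rose by 0.37 in LCN2 KO-labelled mice (adjusted p = 0.0233, edgeR), kept in 7 of 12 fits that left out a mouse. *Cd44* also differed between the IMQ groups, by -0.78 in LCN2 KO-labelled against WT mice (adjusted p = 0.0219, edgeR), kept in 7 of 12. AP-1 subunits were called higher for 2 of 7 genes in WT and 4 of 7 in LCN2 KO-labelled mice, and lower for 0, beside the same shares of all tested genes. *Fosl1* was at 0.277, 0.258 and 0.425 CPM in WT control and at 6.48, 6.72 and 11.2 CPM in WT IMQ mice, and rose by 4.66 on the log2 scale (SE 0.42, adjusted p = 1.63e-05, edgeR). With the LCN2 KO label it was at 0.985, 0.906 and 0.402 CPM in control and at 4.46, 5.90 and 4.20 CPM after IMQ, a rise of 2.65 (SE 0.37, adjusted p = 0.000625, edgeR). *Junb* and *Jund* rose in LCN2 KO-labelled mice by 1.54 and 1.03 (adjusted p at most 0.00251, edgeR) and were not called in WT, a difference between the labels that did not pass adjustment for any AP-1 subunit (adjusted p = 0.203 and 0.0657 for these genes). *Junb* was at 114, 159 and 60.2 CPM in WT control and at 175, 180 and 189 CPM in WT IMQ mice, without overlap. WT control mouse 2 had the highest summed AP-1 level of its group, at 1170 CPM against 480 and 372. *Fosl2* rose by 0.67 in WT (adjusted p = 0.00344) and *Jun* by 0.63 in LCN2 KO-labelled mice (adjusted p = 0.0222, edgeR, kept in 7 of 12 fits that left out a mouse). Genes with and without the AP-1 letters in their promoter window were found both among those that rose after IMQ and among those that did not. *Mmp3*, *Mmp10* and *Mmp13*, with the letters, rose in both labels, and *Mmp12*, with them in 1 of its windows, did not. *Timp1*, *Mmp8* and *Mmp11*, without the letters, also rose in both labels, and *Mmp14*, without them, rose in LCN2 KO-labelled mice. In WT, *Timp3*, *Mmp15* and *Mmp23*, without the letters, were called lower. *Timp2* and, in the cluster, *Mmp27*, also without them, were not called in WT. The part of the letters in these responses was not tested. Outside the members, windows of *Mmp1a*, *Mmp1b*, *Mmp7* and *Mmp20* in the cluster held the letters too. *Mmp1a* and *Mmp1b* had at most 1 count in any control mouse and 1 to 33 in IMQ mice. *Mmp7* and *Mmp20* had at most 1 count in any mouse.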

How the data were processed

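The authors deposited 1 table of raw read counts, whole numbers per Ensembl gene and library without normalization. The submitters' processing notes name HISAT and the build mm8, and the study's methods give paired reads of 150 bp. The counting program, its annotation and its use of strand are not given in the sources used here, and the label of the extraction names retinas although the tissue is given as skin. Gene names, exon lengths and positions were taken from GENCODE M21 (GRCm38), which holds 52073 of the identifiers (91.5%).

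TMM factors were applied, and edgeR 4.0.16 (limma 3.58.1, R 4.3.3) was run with a robust quasi-likelihood fit of 4 group means over 12 mice, for 18529 genes passing filterByExpr (minimum count 10, minimum total 15), with Benjamini-Hochberg adjustment over all of them. The study's methods name DESeq2, and DESeq2 1.42.0 was run as an alternative. CPM values are relative to TMM library sizes, and SEs and 95% intervals come from the edgeR fit. The common biological coefficient of variation was 0.253. Counting floors of 3 reads cover counting error only. A gene was called with an adjusted p under 0.05. The fits were tested on simulated data. The members and lists were chosen with earlier results of these data known. All 10 members are named, and of each list those called in a comparison, at most 4 a direction by size and at a mean of at least 1 CPM. Some genes that this rule names are not reported here. Alternatives were RLE size factors, no filter, at least 10 counts in every library, the replicate block, DESeq2, the compared mice only, a fold above 2, and each mouse left out. Promoter windows are RefSeq GRCm38.p6. Plots were made in Python 3.11.15 (matplotlib 3.10.9).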

Additional observations from a re-analysis of the deposited data

Results flagged for a closer look

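The responses to IMQ of LCN2 KO-labelled and WT mice differed for the following genes by a test of the difference itself in the edgeR model, at an adjusted p under 0.05 among 18529 genes. *Mmp2*, the 1 member among them, responded more strongly by 1.36 on the log2 scale in LCN2 KO-labelled mice (adjusted p = 0.0432). Its log2 difference was 0.77 between the IMQ groups and -0.59 between the control groups, neither of which was called. *Mmp23* differed by 1.79 (adjusted p = 0.0427), *Col1a1* by 1.37 (adjusted p = 0.0195), *Col3a1* by 1.36 (adjusted p = 0.0484), *Col1a2* by 1.31 (adjusted p = 0.0262), *Eln* by 1.03 (adjusted p = 0.0467) and *Hspg2*, perlecan of basement membranes, by 0.91 (adjusted p = 0.0410), all in the same direction. The difference was -2.0 for *Serpinb2* (adjusted p = 0.0188) and -1.22 for *Cd44* (adjusted p = 0.0195), whose rises were smaller in LCN2 KO-labelled mice. When each of the 12 mice was left out in turn, *Serpinb2* kept its call in 7 fits, *Col1a1* in 6, *Cd44* and *Col1a2* in 5, and *Mmp2*, *Mmp23*, *Col3a1*, *Eln* and *Hspg2* in 3.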

How the results depend on the processing

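The number of members called depended on the setting for some comparisons. In WT after IMQ, 3 members rather than 4 were higher without the filter on low counts and with at least 10 counts in every library (all genes: 2130 of 34819 and 2327 of 14779). *Mmp3* lost its call without the filter (adjusted p = 0.0903, edgeR), and *Mmp10* was not tested in the other setting. DESeq2 called 5 higher (all genes: 3080 of 21948). In WT, 1 member rather than 2 was lower without the filter, with the replicate block and in the compared mice only (all genes: 2319 of 34819, 2208 of 18529 and 1878 of 17473). Between the IMQ groups, 2 members rather than 0 were higher without the filter and with at least 10 counts in every library (*Mmp2* and *Mmp14* in each), 3 by DESeq2 and 4 in the compared mice only. Over all genes, 400 of 34819, 544 of 14779, 1230 of 17228 and 1077 of 16991 were higher in these settings, in the same order. In LCN2 KO-labelled mice, 6 members rather than 7 were higher with at least 10 counts in every library, where *Mmp10* was not tested (all genes: 2325 of 14779). With that label, 1 rather than 0 was lower by DESeq2 and in the compared mice only (all genes: 2618 of 21948 and 2128 of 17362). For the difference of the responses, 0 rather than 1 was higher with the replicate block (*Mmp2*, adjusted p = 0.0844) and 3 by DESeq2. Over all genes, 7 of 18529 were higher with the block and 1054 of 17902 by DESeq2. Leaving out each mouse gave 3 to 4 higher and 1 to 3 lower in WT, 0 to 3 higher between the IMQ groups, 7 to 7 higher and 0 to 1 lower in LCN2 KO-labelled mice, and 0 to 3 higher for the difference of the responses. The 3 higher between the IMQ groups and the 3 for the difference came without WT IMQ mouse 2. In that fit, 1288 and 1015 of all 19248 genes tested were higher. The log2 values that changed sign when a mouse was left out belonged to members that were not called: *Mmp2* in WT (-0.01 to 0.40), *Mmp10* (-0.97 to 0.27) and *Timp1* (-0.35 to 0.73) between the IMQ groups, *Mmp12* for the difference of the responses (-0.46 to 0.60), and, between the control groups, *Mmp3* (-0.58 to 0.05), *Mmp9* (-0.61 to 0.25), *Mmp12* (-1.04 to 0.04), *Mmp13* (-0.34 to 0.59) and *Mmp14* (-0.24 to 0.02). The cause was not tested. Replicate numbers were not taken to mark shared animals. Of 18 correlations between same-numbered mice, 1 was above 0.1, their mean was -0.051, and 1 between the control groups was -0.555. With groups of 3, these values cannot show what the numbers mark. With the block, 77 of all genes were higher and 59 lower between the IMQ groups, against 405 and 481 without it, 1230 and 1272 by DESeq2, and 1077 and 817 in the compared mice only. With 3 mice a group and a biological coefficient of variation of 0.253, rare transcripts such as *Mmp10* have wide intervals.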

Other observations

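Among 20 tested ADAM and ADAMTS proteases, relatives of the MMPs that shed membrane proteins or process collagens and proteoglycans, 3 were called higher and 3 lower in WT after IMQ, and 10 higher and 2 lower in LCN2 KO-labelled mice. The WT counts are near the share of all tested genes, 14.2% of which were called higher and 14.3% lower, against 14.1% and 11.2% in LCN2 KO-labelled mice. *Adam8* rose by 1.53 in WT and 1.15 in LCN2 KO-labelled mice on the log2 scale, and in WT *Adamts1* rose by 0.92 and *Adam17*, which sheds TNF, by 0.49 (adjusted p at most 0.00858, edgeR). *Adamts20* had log2 fold changes of -1.67 in WT and -2.25 in LCN2 KO-labelled mice, and *Adamts3*, a procollagen peptidase gene, of -2.52 and -3.65, all called, with the WT calls lost in 4 and 2 of 12 fits that left out a mouse. The WT value of *Adamts3* was -3.11 without WT IMQ mouse 3. *Adamts14* fell by 0.97 on the log2 scale in WT (adjusted p = 0.00329, edgeR). *Adam19* (1.27), *Adamts2* (1.25) and *Adam15* (1.01) rose in LCN2 KO-labelled mice, kept in 12, 10 and 8 of these 12 fits. *Adam12* was the 1 gene of this list called between the IMQ groups, with a log2 difference of 0.90 (adjusted p = 0.0257, edgeR), kept in 7 of 12.

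The 5 genes whose log2 CPM profile over the 12 mice lay nearest to that of *Mmp10*, by the root mean square difference after centring, were *Htr1b*, a serotonin receptor gene (0.552), *Tmprss11a*, a transmembrane serine protease gene (0.600), *Gsta4*, a glutathione transferase gene (0.614), *Gm36546* (0.700) and *Hmga2*, a chromatin protein gene (0.712). Their log2 fold changes after IMQ lay between 3.43 and 7.12 in WT and between 3.26 and 5.31 in LCN2 KO-labelled mice. The profiles share their 12 libraries, and no test was made of this likeness.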
